A study of Rattus norvegicus with 23 samples.

Results

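The subunits of the CCR4-NOT complex were followed in rat myocardium after infarction, with and without an implanted device. The 10 genes were chosen by name (Cnot1, Cnot2, Cnot3, Cnot4, Cnot6, Cnot6l, Cnot7, Cnot8, Cnot10 and Cnot11), and all 10 were present among the 10723 genes measured in each library and passed the filter on low values. Polyadenylated RNA had been sequenced from Sprague-Dawley rats whose left coronary artery was tied off to produce a myocardial infarction (MI), with or without a further operation that implanted a device called TRD in the labels (MI+TRD). At 12 weeks there were 6 MI+TRD and 6 MI libraries, and at 6 weeks there were 5 MI+TRD and 6 MI libraries, so every rat carried an infarct. The labels give neither age nor sex, do not say which region of the heart was cut, and name no further operation without a device for the MI rats. The family itself was selected on a measured value, the 12-week difference of Cnot6l, so 12-week differences of the 10 genes are descriptions here. Where the fit over all genes gave them p-values, those are shown as counts only and support nothing.

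CCR4-NOT is the main cytoplasmic deadenylase. It shortens the poly(A) tail of messenger RNAs, which represses their translation and exposes them to decapping and decay. Cnot1 is the scaffold on which the other subunits sit. Each complex holds an exonuclease of the Ccr4 type (Cnot6 or its paralogue Cnot6l) and an exonuclease of the Caf1 type (Cnot7 or its paralogue Cnot8), and in the heart the Cnot3 subunit is known from fly and mouse mutants to be needed for normal contractile function.

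Promoter windows of 3 of the 4 exonuclease genes are shown, since the values below are read within these pairs of paralogues. Cnot7 had no entry, so the Caf1 pair cannot be compared. They are RefSeq sequences of build GRCr8, running from 250 bases before to 50 bases after the start, 5′ to 3′ on the gene's strand, and the other 9 subunits had an entry. Capitals mark matches on either strand to GGGCGG (the core of the GC box) and CCAAT, and the other motif searched, CCGGAAG (an ETS-type site), had no match in these windows. Both strands were searched, and matches of different motifs did not overlap here.
Cnot6l, chr14:13714225-13714524, plus strand: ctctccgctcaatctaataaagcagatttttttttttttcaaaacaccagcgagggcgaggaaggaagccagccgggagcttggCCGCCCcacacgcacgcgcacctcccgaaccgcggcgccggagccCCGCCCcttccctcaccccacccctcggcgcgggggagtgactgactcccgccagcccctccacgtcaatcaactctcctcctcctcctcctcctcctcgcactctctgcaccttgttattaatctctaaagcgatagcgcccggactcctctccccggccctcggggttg
Cnot6, chr10:34532077-34532376, minus strand: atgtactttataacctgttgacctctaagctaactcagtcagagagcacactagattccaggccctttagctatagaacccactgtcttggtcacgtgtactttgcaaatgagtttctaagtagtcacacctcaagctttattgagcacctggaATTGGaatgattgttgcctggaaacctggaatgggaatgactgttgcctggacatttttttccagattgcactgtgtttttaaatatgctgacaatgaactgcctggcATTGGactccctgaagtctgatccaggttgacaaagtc
Cnot8, chr10:42781996-42782295, plus strand: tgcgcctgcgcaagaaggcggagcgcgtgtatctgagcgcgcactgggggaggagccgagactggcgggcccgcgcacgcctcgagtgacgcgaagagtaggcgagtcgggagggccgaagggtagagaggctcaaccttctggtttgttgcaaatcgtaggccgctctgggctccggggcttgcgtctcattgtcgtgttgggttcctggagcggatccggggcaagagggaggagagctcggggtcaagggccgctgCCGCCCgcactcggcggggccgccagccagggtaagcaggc
The Cnot6l window held 2 matches to GGGCGG and 0 to CCAAT, the Cnot6 window 0 and 2, and the Cnot8 window 1 and 0. Their GC content was 62.7%, 43.0% and 68.3%. Over all 33469 promoter windows of the table, 33.1% held GGGCGG, 37.5% CCAAT and 8.75% CCGGAAG, and among the 9 subunits these were found in 7, 4 and 2. Such matches describe letters only, and no measurement of binding or chromatin was made on these hearts.

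The 12-week libraries held between 7197118 and 10304156 reads, as recovered from the deposited values. Markers of cardiomyocytes were abundant in every library: 9 of 10 listed were measured, and their summed normalized counts ran from 29263 to 51215 in MI+TRD and from 35698 to 57605 in MI, with Ttn not in the table. Libraries differed in ways that the labels do not describe, and some of these were unevenly spread over the 2 groups. Entries for ribosomal RNA took 1.81% to 4.45% of the column total in MI+TRD libraries and 1.35% to 11.7% in MI libraries, above 5% in MI replicates 1 to 4 alone. Genes spanning up to 2 kb lay lowest in MI+TRD replicates 1, 4 and 5 (log2 deviation −0.53, −0.36 and −0.37 relative to the library median), against −0.02 to 0.32 in MI. The 6 leukocyte markers summed to 1802 in MI+TRD replicate 6, the highest library of that group, and to at most 111 in MI. The 7 atrial markers summed to between 148 and 3347 in MI+TRD and between 228 and 12009.5 in MI, with Sln at 0 reads in 5 libraries. The 6 fibroblast markers summed to 716 to 3049 in MI+TRD, again highest in replicate 6, and to 814 to 1150.01 in MI. Endothelial (5 of 5 measured, 313 to 723 in MI+TRD and 436 to 651 in MI), erythroid (5 of 6, 186 to 701 and 81.9 to 364) and epicardial markers (5 of 6, 15.5 to 83.7 and 9.30 to 24.3, Krt19 at 0 in 5 libraries) were present in both groups, and the part of any of these markers in the results was not tested. In whole tissue, fewer cells of a type and less RNA per cell cannot be told apart.

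Of the 10 subunits, the Ccr4-type exonuclease gene Cnot6l (chromosome 14, 15059387 to 15146587, plus strand, rn6) differed most between the groups at 12 weeks. Its normalized counts were 13.2, 10.2, 9.43, 11.9, 11.9 and 11.1 in MI+TRD replicates 1 to 6, against 4.51, 4.32, 8.17, 2.32, 8.66 and 8.53 in MI replicates 1 to 6. Every MI+TRD library lay above every MI library, while MI replicates 1, 2 and 4 were low and MI replicates 3, 5 and 6 lay nearer to MI+TRD. The mean was 11.3 ± 1.34 in MI+TRD and 6.09 ± 2.71 in MI (SD, n = 6 each), a log2 fold change of 0.998 (SE 0.27), or 1.14 relative to the median of all genes, which stood at −0.14. The underlying reads numbered 202 to 302 in MI+TRD, and 83, 88, 199, 42, 210 and 188 in MI replicates 1 to 6. Without MI replicate 4, the lowest library, the log2 fold change was 0.76 (SE 0.20), and a log2 fold change as high as that of Cnot6l was seen for 0.516% of all genes.

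Its paralogue Cnot6 (chromosome 10, 35146331 to 35195127, minus strand) carries the same catalytic domain and overlapped between the groups. Cnot6 ran from 5.20 to 9.18 with a median of 7.93 in MI+TRD, and from 3.78 to 8.81 with a median of 6.12 in MI. Its mean was 7.54 ± 1.42 in MI+TRD and 6.31 ± 1.62 in MI (SD, n = 6 each), a log2 fold change of 0.27 (SE 0.19). MI replicate 4 was the lowest library for this gene too, and without it the log2 fold change was 0.13. In the RefSeq annotation of GRCr8 another gene, Cnot6l2, lies within the span of Cnot6, and how reads were divided between such genes is not given in the sources used here.

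**Figure D1:**
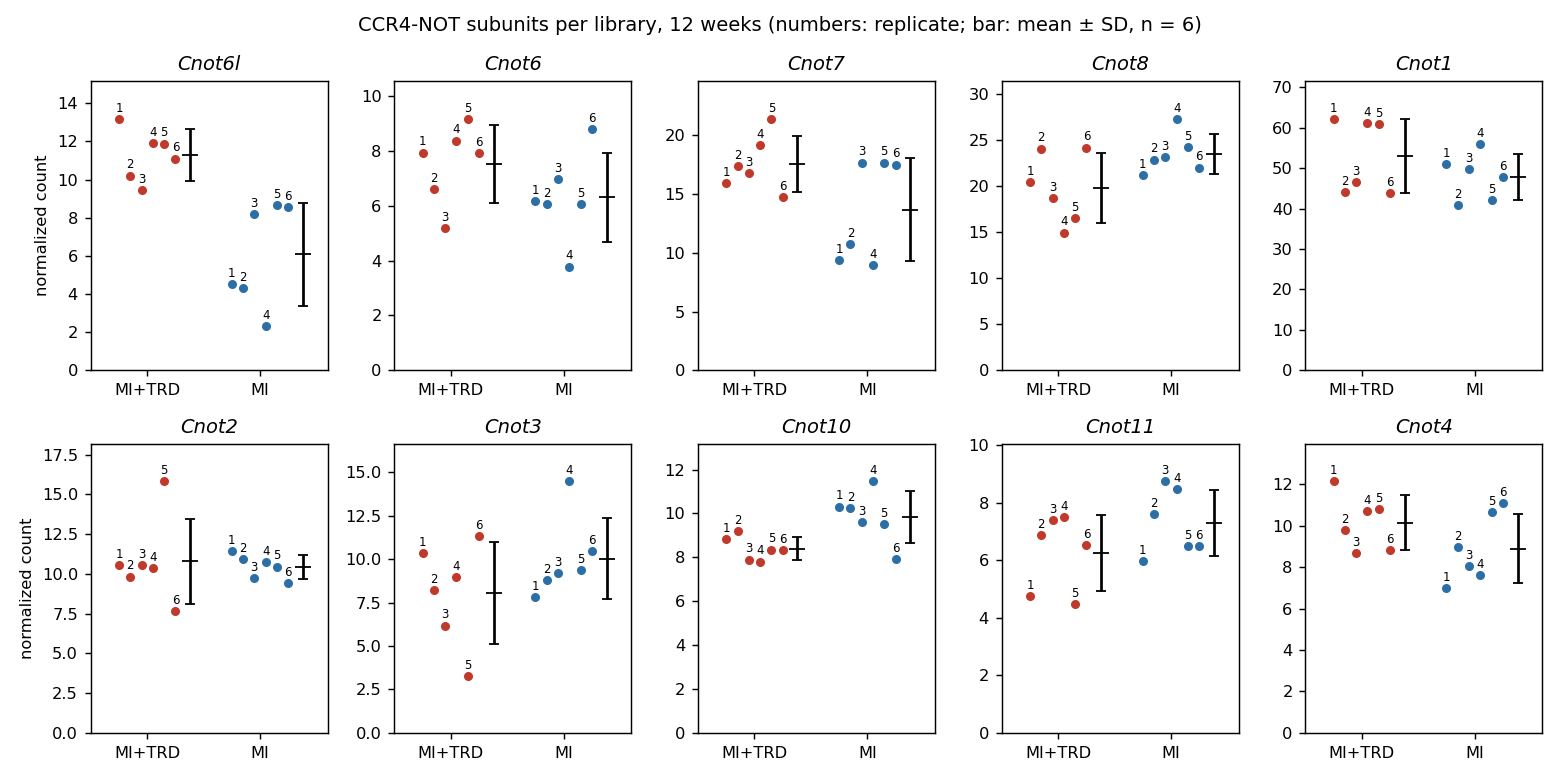
Normalized count (vertical axis, from 0) of each CCR4-NOT subunit in the 6 MI+TRD libraries (red) and the 6 MI libraries (blue) at 12 weeks, with replicate numbers beside the points and the mean ± SD beside each group. Cnot6l is the subunit whose groups do not overlap (9.43 to 13.2 in MI+TRD, 2.32 to 8.66 in MI), and MI replicates 1, 2 and 4 are low for both Cnot6l and Cnot7.

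The Caf1-type exonuclease genes lay on opposite sides of equality. Cnot7 (chromosome 16, 54899452 to 54918614, plus strand), which is also a docking site of the BTG and TOB proteins, measured 15.9, 17.4, 16.8, 19.1, 21.4 and 14.7 in MI+TRD replicates 1 to 6, against 9.40, 10.8, 17.7, 8.97, 17.7 and 17.5 in MI replicates 1 to 6. The MI libraries split as for Cnot6l, with replicates 1, 2 and 4 low, and MI replicates 3, 5 and 6 lay inside the range of MI+TRD. The mean was 17.6 ± 2.40 in MI+TRD and 13.7 ± 4.38 in MI (SD, n = 6 each), a log2 fold change of 0.41 (SE 0.19).

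Cnot8 (chromosome 10, 43538310 to 43551272, plus strand), the other enzyme of this type, lay lower in MI+TRD. It ran from 14.9 to 24.1 with a median of 19.6 in MI+TRD, and from 21.2 to 27.3 with a median of 23.0 in MI, so that 4 of the 6 MI+TRD libraries lay below the lowest MI library. The mean was 19.8 ± 3.83 in MI+TRD and 23.5 ± 2.15 in MI (SD, n = 6 each), a log2 fold change of −0.26 (SE 0.14), or −0.12 relative to the median of all genes. With equal column totals it was −0.025, or −0.11 relative to the median of all genes, which that setting moved from −0.14 to 0.085. MI+TRD replicates 4 and 5, at 14.9 and 16.5, were the lowest libraries, and both are among those in which short genes were low.

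The balance within each pair of paralogues was read as a ratio inside each library, which does not depend on the scaling between libraries and was not corrected for transcript length. The ratio of Cnot6l to Cnot6 was 1.66, 1.54, 1.81, 1.42, 1.29 and 1.40 in MI+TRD replicates 1 to 6, against 0.730, 0.712, 1.17, 0.614, 1.43 and 0.969 in MI replicates 1 to 6. All MI+TRD libraries but replicates 4, 5 and 6 lay above the highest MI library, replicate 5, and all 6 lay above the other 5 MI libraries. On the log2 scale the ratio averaged 0.60 ± 0.18 in MI+TRD and −0.16 ± 0.47 in MI (SD, n = 6 each), a difference of 0.76. Without the 4 libraries above 5% ribosomal RNA the difference was 0.36.

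The ratio of Cnot8 to Cnot7 was lower in MI+TRD. It ran from 0.771 to 1.64 with a median of 1.20 in MI+TRD, and from 1.26 to 3.04 with a median of 1.75 in MI. On the log2 scale it averaged 0.16 ± 0.45 in MI+TRD and 0.84 ± 0.52 in MI (SD, n = 6 each), a difference of −0.68. The high values in MI came from replicates 1, 2 and 4 (2.26, 2.12 and 3.04), while MI replicates 3, 5 and 6 (1.31, 1.37 and 1.26) lay inside the MI+TRD range. The difference was −0.39 without MI+TRD replicates 1, 4 and 5, and −0.23 without the 4 libraries above 5% ribosomal RNA. The ratio of Cnot6l to Cnot7 was looked at after these values were seen, and it ran from 0.555 to 0.828 in MI+TRD and from 0.259 to 0.490 in MI.

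**Figure D2:**
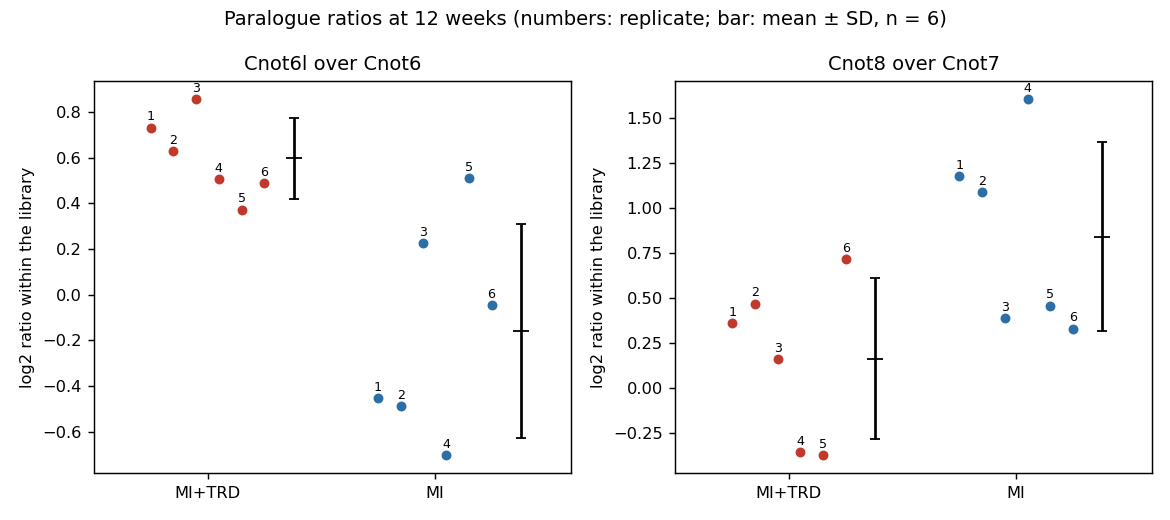
Log2 ratio of the normalized counts of paralogous exonuclease genes within each library (vertical axes), for MI+TRD (red) and MI (blue) at 12 weeks, with replicate numbers and the mean ± SD. Cnot6l over Cnot6 averages 0.60 in MI+TRD and −0.16 in MI, and Cnot8 over Cnot7 averages 0.16 in MI+TRD and 0.84 in MI, with MI replicates 1, 2 and 4 at the far end in both panels.

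The scaffold gene Cnot1 (chromosome 19, 9668186 to 9761606, plus strand) overlapped between the groups. It measured 62.2, 44.2, 46.5, 61.2, 60.8 and 43.8 in MI+TRD replicates 1 to 6, against 51.0, 40.8, 49.7, 56.0, 42.1 and 47.7 in MI replicates 1 to 6. The high MI+TRD libraries were replicates 1, 4 and 5, the libraries in which genes of short span were low, and the other MI+TRD libraries lay inside the MI range. The log2 fold change was 0.14 (SE 0.13), and −0.087 (SE 0.13) without MI+TRD replicates 1, 4 and 5. It was 0.38 with equal column totals, 0.30 with median ratio scaling and 0.31 with edgeR. Relative to the median of all genes it was 0.28 as reported, and 0.29, 0.29 and 0.28 in these settings. Without MI+TRD replicates 1, 4 and 5 the relative value was 0.064. These libraries had the highest Cnot1 values of the group, so a lower log2 fold change without them follows from leaving them out.

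The NOT module pairs Cnot2 with Cnot3, which bind the C-terminal part of Cnot1. Cnot2 (chromosome 7, 59530559 to 59587386, minus strand) ran from 7.68 to 15.8 with a median of 10.4 in MI+TRD, and from 9.44 to 11.4 with a median of 10.6 in MI. Its log2 fold change was 0.015 (SE 0.15), with both the highest library (MI+TRD replicate 5) and the lowest (MI+TRD replicate 6) in the same group. Cnot3 (chromosome 1, 64130823 to 64147067, minus strand) ran from 3.26 to 11.3 with a median of 8.60 in MI+TRD, and from 7.83 to 14.5 with a median of 9.30 in MI. Its log2 fold change was −0.38 (SE 0.26), and −0.15 without MI+TRD replicate 5, where Cnot3 was at its lowest and Cnot2 at its highest.

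Cnot10 and Cnot11 form the module at the other end of the scaffold. Cnot10 (chromosome 8, 122634681 to 122696467, minus strand) varied least among the libraries with the device, from 7.81 to 9.19 with a median of 8.34 in MI+TRD, against 7.90 to 11.5 with a median of 9.92 in MI. All 6 MI+TRD libraries lay below the MI mean, and the log2 fold change was −0.22 (SE 0.12), turning to 0.016 with equal column totals. Relative to the median of all genes it was −0.074 as reported and −0.069 with equal column totals. Cnot11 (chromosome 9, 46270229 to 46279927, plus strand) ran from 4.47 to 7.49 with a median of 6.69 in MI+TRD, and from 5.96 to 8.74 with a median of 7.06 in MI. Its log2 fold change was −0.23 (SE 0.17), and MI+TRD replicates 1 and 5 were its lowest libraries. The value was −0.14 without MI+TRD replicate 5 and −0.00092 with equal column totals. For Cnot11 the values relative to the median of all genes were −0.089 as reported, −0.086 with equal column totals and 0.013 without MI+TRD replicate 5.

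Cnot4 (chromosome 4, 62561443 to 62663201, minus strand) is a ubiquitin ligase that is loosely attached to the complex in mammals. It ran from 8.68 to 12.1 with a median of 10.2 in MI+TRD, and from 6.98 to 11.1 with a median of 8.51 in MI. Its log2 fold change was 0.20 (SE 0.15). MI replicates 1, 3 and 4 were its lowest libraries, and without the 4 libraries above 5% ribosomal RNA the log2 fold change was −0.11. It was 0.43 with equal column totals and 0.36 with median ratio scaling. Relative to the median of all genes it was 0.34 as reported and in both of these settings. Without the 4 libraries above 5% ribosomal RNA the relative value was −0.034.

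Cnot9 (chromosome 9, 81783349 to 81808808, plus strand), the subunit that binds the tryptophan motifs of the microRNA silencing proteins, is not among the 10 but belongs to the complex. It measured 9.94, 10.1, 7.89, 10.1, 4.98 and 13.3 in MI+TRD replicates 1 to 6, against 13.5, 16.7, 12.4, 15.4, 15.1 and 11.6 in MI replicates 1 to 6. Of the MI+TRD libraries, 5 lay below the lowest MI library and replicate 6 did not. The mean was 9.40 ± 2.78 in MI+TRD and 14.1 ± 1.96 in MI (SD, n = 6 each), a log2 fold change of −0.62 (SE 0.20, limma adjusted p = 0.133 over all genes, and between 0.0801 and 0.990 over the other settings). With equal column totals it was −0.39. Relative to the median of all genes it was −0.48 both as reported and with equal column totals. Cnot9 fell in the authors' deposited table for 12 weeks, with a ratio of 0.650 and a false discovery rate of 0.0499. At a false discovery rate of 0.05 that table called 2.9% of all genes lower and 0.0443% higher.

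**Figure D3:**
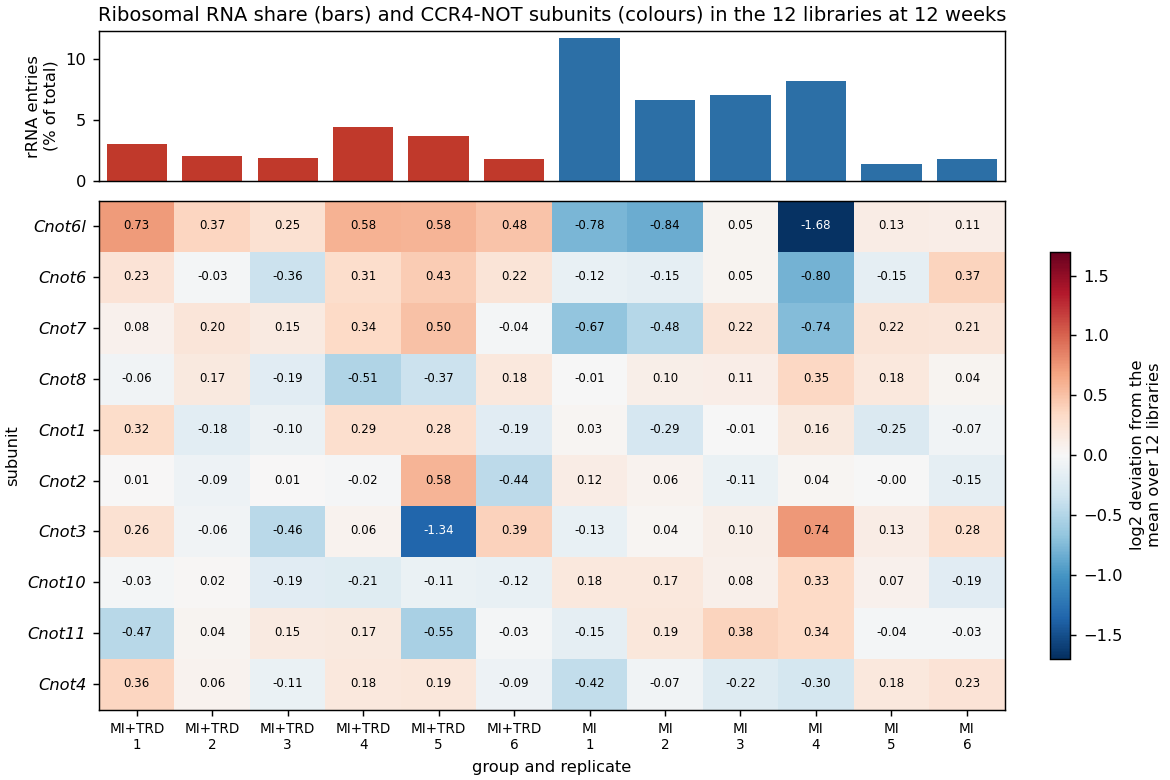
Upper panel, share of the column total taken by ribosomal RNA entries (percent, bars from 0) in each 12-week library. Lower panel, log2 deviation of each subunit from its own mean over the 12 libraries (colour scale and printed values), with MI+TRD replicates 1 to 6 on the left and MI replicates 1 to 6 on the right. Cnot6l is lowest at −1.68 in MI replicate 4, and Cnot3 is lowest at −1.34 in MI+TRD replicate 5.

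Counted over the family at 12 weeks, 6 of the 10 subunits had a positive log2 fold change and 4 a negative one, against 32.2% of all 10655 genes tested with a positive one. The median over the subunits was 0.08, or 0.22 relative to the median of all genes, and the same 6 lay above that median. At a nominal (unadjusted) limma p below 0.05, 1 subunit (Cnot6l) was higher, against 2.8% of all genes, and 0 were lower, against 19.1%. No gene of the table passed an adjusted p of 0.05 with limma or edgeR, and DESeq2 called 18 genes (0.159% of genes higher and 0.101% lower), with no subunit among them. At a nominal p, edgeR and DESeq2 each gave 3 subunits higher (Cnot1, Cnot6l and Cnot7) and 0 lower, against 8% and 6.98% of all genes higher and lower with edgeR, and 8.98% and 7.25% with DESeq2. The groups did not overlap for Cnot6l, in the higher direction, as for 0.113% of all genes, and for 0 subunits in the lower direction, against 1.59% of all genes. Since these counts come from the comparison that drew attention to the family, nothing is read from them. The counts move with the scaling: with equal column totals 5 subunits were higher and 0 lower at a nominal p below 0.05, and over all genes 1208 were higher and 412 lower, against 298 and 2033 on the deposited scale.

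The share of ribosomal RNA moved with the low MI values of Cnot6l and Cnot7, although not library by library. MI replicates 1, 2 and 4 had 11.7%, 6.66% and 8.22% of ribosomal RNA and low values of both genes, and MI replicate 3 had 7.04% with 8.17 for Cnot6l and 17.7 for Cnot7. MI replicates 5 and 6 had 1.35% and 1.78%. Without MI replicates 1 to 4, a choice made by this share after seeing the data that leaves 2 MI libraries, the log2 fold change was 0.38 (SE 0.18) for Cnot6l and −0.013 (SE 0.18) for Cnot7. Relative to the median of all genes, the log2 fold change was then 0.45 for Cnot6l and 0.060 for Cnot7. With the log2 share as a covariate it was 0.76 (SE 0.27) for Cnot6l and 0.25 (SE 0.20) for Cnot7. MI replicates 1, 2 and 4 also had the 3 highest column totals, and what part the make-up of these libraries has in the difference was not tested.

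Genomic span is a further property that moved with the fold changes of all genes. The 353 genes of up to 2 kb had a median of −0.29 on the relative log2 scale, and the 1410 genes of 50 to 100 kb had one of 0.15. Cnot6l spans 87.2 kb, Cnot1 93.4 kb and Cnot4 102 kb, while Cnot8 spans 13.0 kb, Cnot3 16.2 kb and Cnot11 9.70 kb. Cnot7, at 19.2 kb, and Cnot10, at 61.8 kb, do not follow that order. In a further setting the trend over span was removed from each library. On the deposited scale the log2 fold change was 0.87 (SE 0.25) for Cnot6l, 0.42 (SE 0.19) for Cnot7 and 0.0043 (SE 0.11) for Cnot1. The median of all genes stood at −0.14 in that setting. Relative to that median the values were 1.001 for Cnot6l, 0.56 for Cnot7 and 0.14 for Cnot1. As reported, the relative values of these genes were 1.14, 0.55 and 0.28. The part of span in these values was not tested further.

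**Figure D4:**
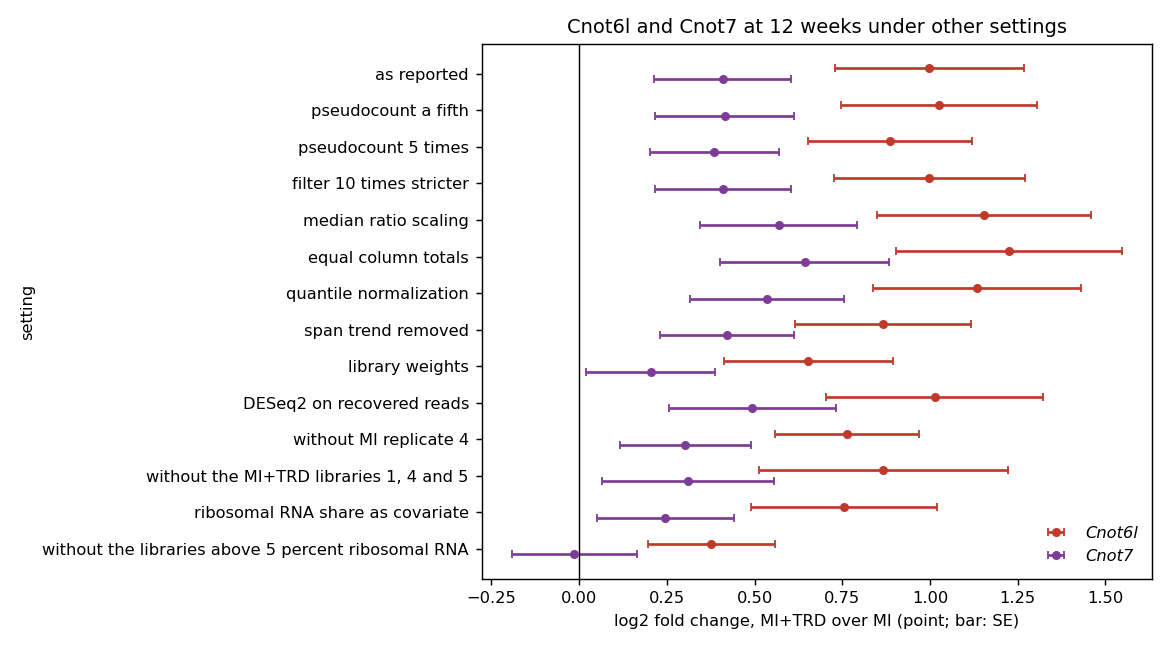
Log2 fold change of MI+TRD over MI at 12 weeks (horizontal axis, point and SE) for Cnot6l (red) and Cnot7 (purple) as reported and under 13 other settings (vertical axis). Cnot6l stays above 0 throughout, from 0.38 without the 4 libraries above 5% ribosomal RNA to 1.22 with equal column totals, and Cnot7 is at −0.013 without those libraries.

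At 6 weeks no subunit passed a false discovery rate of 0.05 in the authors' deposited table, which gives group means without the libraries behind them. In that table Cnot6l had a least-squares mean of 6.44 in MI+TRD and 6.46 in MI, a ratio of 0.996 (false discovery rate 0.995). Cnot7 had 12.7 in MI+TRD and 12.4 in MI, with a ratio of 1.02. The highest ratio in that table was 1.18 for Cnot11 (false discovery rate 0.817) and the lowest 0.873 for Cnot2 (false discovery rate 0.825). In all, 3 subunits had a ratio above 1 and 7 below 1 in that table, against 43% and 57% of all genes. Of the 10 subunits, 0 had a p below 0.05 in either direction in the authors' deposited table, against 4.42% of all genes higher and 4.09% lower, and 0 of all 11283 genes passed a false discovery rate of 0.05 there.

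In the authors' deposited table for 12 weeks, Cnot6l had a least-squares mean of 11.6 in MI+TRD and 6.33 in MI, a ratio of 1.83 with a false discovery rate of 0.0546. Cnot8 had a ratio of 0.824 there, with a false discovery rate of 0.170. These were the subunits with a nominal p below 0.05 in that table, 1 in each direction, against 2.12% of all genes higher and 22% lower. At a false discovery rate of 0.05 that table called 0 of the 10 subunits, against 0.0443% of all genes higher and 2.9% lower. A ratio above 1 at 12 weeks was listed in the authors' deposited table for 6 subunits and a ratio below 1 for 4, against 32.7% and 67.3% of all genes. The authors' deposited tables gave ratios on different sides of 1 at 6 and 12 weeks for Cnot1 (0.941 and 1.09), Cnot2 (0.873 and 1.02), Cnot4 (0.951 and 1.13), Cnot6 (0.949 and 1.17), Cnot6l (0.996 and 1.83), Cnot8 (1.03 and 0.824) and Cnot11 (1.18 and 0.837). How many of all genes changed sides in this way is not given here. The median log2 ratio of all genes was −0.039 at 6 weeks and −0.16 at 12 weeks. The difference between 6 and 12 weeks was not tested, since values per library were used for 12 weeks alone.

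**Figure D5:**
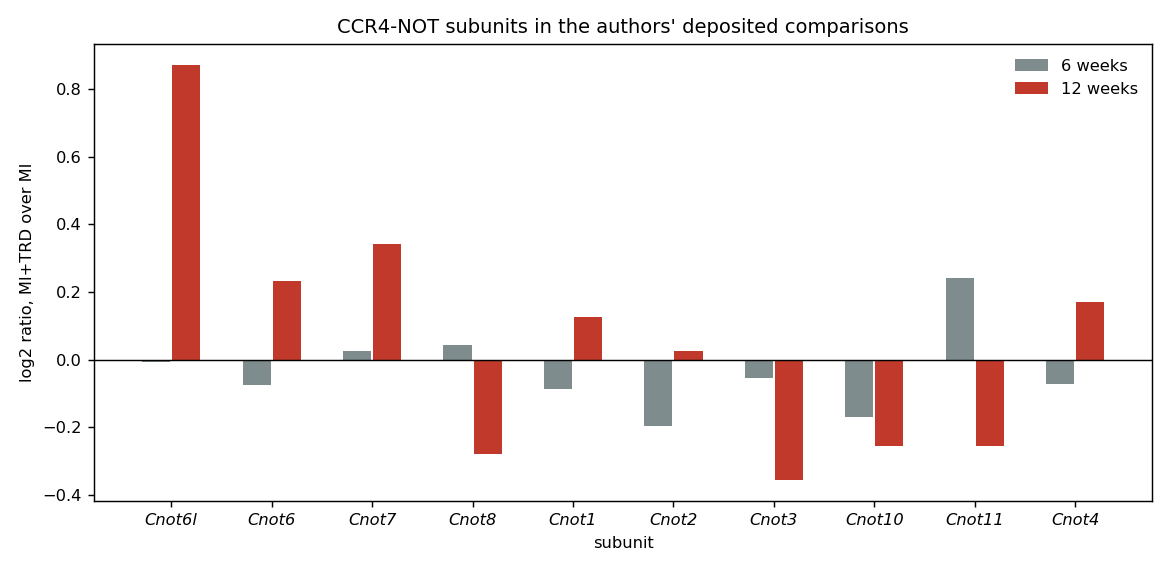
Log2 of the ratio of MI+TRD to MI in the authors' deposited tables (vertical axis) for each subunit, at 6 weeks (grey) and 12 weeks (red). At 6 weeks the ratios lie between 0.873 and 1.18, and at 12 weeks between 0.781 for Cnot3 and 1.83 for Cnot6l.

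The genes whose pattern over the 12 libraries was nearest to that of Cnot6l were Zdhhc20, Cul4b, Cggbp1 and Tmem47. Likeness was measured as the root mean square difference of log2 values, each gene centred on its own mean, and was 0.18, 0.19, 0.21 and 0.22 for these genes, against a median of 0.87 over 10437 candidates. All 4 were low in the same MI libraries, which follows from choosing them by this likeness. Cul4b, for example, a scaffold of ubiquitin ligases, measured 8.36 to 14.0 in MI+TRD, against 4.30, 5.48, 7.84, 2.32, 11.4 and 8.35 in MI replicates 1 to 6. Nearest to Cnot1 were Rab14, Cdc5l, Nek9 and Sbno1, at 0.088, 0.095, 0.098 and 0.105 against a median of 0.42. Among the subunits themselves, Cnot8 and Cnot10 were the closest pair, at 0.18, and Cnot1 and Cnot2 came next, at 0.22.

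Of 26 listed proteins that bring CCR4-NOT to its targets 20 were tested at 12 weeks, and 15 of them lay above the median gene. At a nominal limma p below 0.05, 3 were higher and 0 lower, against 2.8% of all genes higher and 19.1% lower, and their median on the relative log2 scale was 0.27. Pum2, a repressor that binds 3′ UTRs, measured 72.1 ± 8.44 in MI+TRD and 53.5 ± 13.1 in MI (SD, n = 6 each). Ythdf2, a reader of methylated adenosine that recruits the complex through Cnot1, measured 18.2 ± 2.57 in MI+TRD and 14.5 ± 1.88 in MI (SD, n = 6 each). Tob1, which links Cnot7 to poly(A)-binding protein, measured 29.7 ± 3.74 in MI+TRD and 22.9 ± 6.69 in MI (SD, n = 6 each). None of the 3 passed over all genes (limma adjusted p = 0.142, 0.169 and 0.208).

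Of 10 other deadenylases and poly(A)-binding proteins, 0 were higher and 1 lower at a nominal p below 0.05, against 2.8% and 19.1% of all genes, with a relative median of 0.0088. The nuclear poly(A)-binding protein gene Pabpn1 measured 38.3 ± 12.4 in MI+TRD and 54.0 ± 7.94 in MI, the cytoplasmic Pabpc1 83.1 ± 31.5 in MI+TRD and 60.0 ± 12.8 in MI, and the circadian enzyme gene Noct 17.9 ± 4.74 in MI+TRD and 21.2 ± 3.76 in MI (SD, n = 6 each). The relative log2 fold changes of Pabpn1, Pabpc1 and Noct were −0.40, 0.55 and −0.12.

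Genes of the machinery that acts after deadenylation were read against all genes, of which 2.8% were higher and 19.1% lower at a nominal p below 0.05. Of 15 decapping and 5′ to 3′ decay genes 0 were higher and 5 lower at that p, with a relative median of −0.10. Of 11 exosome and Ski complex genes 0 were higher and 3 lower, with a relative median of −0.18. These counts are on the deposited scale and are not given under other settings. Over all genes 2033 were lower on that scale, 878 with median ratio scaling and 412 with equal column totals. Lsm4, part of the ring that binds shortened tails, measured 11.1 ± 5.50 in MI+TRD and 18.3 ± 3.51 in MI (SD, n = 6 each). Edc4, a scaffold of the decapping complex, measured 21.9 ± 2.99 in MI+TRD and 28.5 ± 4.26 in MI, and Lsm1 measured 5.58 ± 1.02 in MI+TRD and 7.43 ± 1.17 in MI (SD, n = 6 each). The exosome core gene Exosc4 measured 6.20 ± 1.10 in MI+TRD and 10.996 ± 3.39 in MI (SD, n = 6 each, limma adjusted p = 0.133). Its false discovery rate was 0.0435 in the authors' deposited table for 12 weeks. At a false discovery rate of 0.05 that table called 1 gene of this list lower, against 2.9% of all genes. For Exosc5, another core gene, and Wdr61, of the Ski complex, the relative log2 fold changes were −0.31 and −0.18.

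Of 5 messenger RNAs reported as targets of the complex in other systems 4 were measured. At a nominal limma p below 0.05 there were 0 in either direction, against 2.8% of all genes higher and 19.1% lower. The stress cytokine gene Gdf15 measured 2.02 ± 1.41 in MI+TRD and 3.72 ± 2.85 in MI, the metabolic kinase gene Pdk4 88.9 ± 28.5 in MI+TRD and 97.9 ± 15.1 in MI, and the cell cycle inhibitor gene Cdkn1b 19.8 ± 3.65 in MI+TRD and 19.5 ± 5.65 in MI (SD, n = 6 each). Gdf15 was at 0.039 in MI+TRD replicate 5, the lowest value that any gene had in that library. In the authors' deposited table for 6 weeks, 2 of 21 adaptors and 1 of 10 other deadenylases and poly(A)-binding proteins were lower at a p below 0.05, against 4.09% of all genes. No gene of these lists was higher at that p, against 4.42% of all genes, and none of the remaining lists was lower.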

How the data were processed

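Rat myocardium was taken for sequencing of polyadenylated RNA, per the labels' protocols. Partek and the build rn6 are named in the submitters' processing notes, while the aligner, the counting rule, any use of strand and the scaling method were not given in the sources used here. The 12-week values are a signal, the authors' deposited normalized count per gene and library. They behave as whole reads plus 1 times a step for each library, with 97.2% to 98.6% of values up to 20 steps whole to within 0.1. For each comparison the authors' deposited tables hold, for 6 and for 12 weeks, a p-value, a false discovery rate, a linear ratio of MI+TRD to MI, a signed fold change (a score, not used here) and a least-squares mean for each group. At 6 weeks only these tables entered.

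All 10655 genes averaging at least 1 CPM of the column total (0.415 deposited units) were fitted with limma 3.58.1 in R 4.3.3 (eBayes with a trended prior, two-sided, Benjamini-Hochberg adjustment, threshold 0.05) on log2(value + 0.208). Fold changes are on that scale, which understates the change of low genes, and SE is the moderated standard error. On recovered reads, edgeR 4.0.16 (quasi-likelihood) and DESeq2 1.42.0 were run beside it. In simulated reads for the same comparison (10651 genes), limma recovered 24% of genes changed 1.5-fold and 76% of those changed 2-fold. The simulation gave every gene the same dispersion and every library the same make-up. The real libraries differed in ribosomal RNA share and in the trend over span, so these percentages do not give the recovery in the real data. Replicates all differed by more than sampling noise (chi-square per degree of freedom 15.0 or more). The labels give no animal identifiers, so errors measure the spread between these samples, and read numbers limit precision by counting error at least.

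The subunits, the pathway lists and the rule for named genes were chosen with earlier results of these data known. All 10 subunits are named, with up to 3 genes of each list by smallest limma p and the 4 genes nearest in pattern to Cnot6l and to Cnot1 (locus identifiers left out).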

Additional observations from a re-analysis of the deposited data

Results flagged for a closer look

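In MI+TRD replicate 5, Cnot2 measured 15.8 normalized counts, far above the other 5 MI+TRD libraries, of which the highest was 10.5. The gap to the nearest library made up 0.648 of the whole range of the group, more than Dixon's test allows for a group of 6. It was the only 1 of 26 groups of values examined in this way (the 10 subunits, Cnot9 and both paralogue ratios, in both groups), and chance marks about 1 in 20 such groups. The same library had the lowest value of Cnot3, at 3.26, and the most genes at 0 reads, 178.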

How the results depend on the processing

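The family was selected on the 12-week difference of Cnot6l, so its sign and size under other settings describe that value and do not support it. The log2 fold change of Cnot6l was between 0.38 and 1.22 under the 28 other settings. That of Cnot6 stayed positive (0.013 with library weights to 0.49 with equal column totals) on the deposited scale, where the median of all genes stood at −0.14 as reported. Those of Cnot3, Cnot8, Cnot9 and Cnot11 stayed negative on that scale, Cnot11 at −0.00092 with equal column totals. Cnot1, Cnot4, Cnot7 and Cnot10 turned sign in 1 setting each (−0.087, −0.11, −0.013 and 0.016), and Cnot2, near 0, in 5. Relative to the median of all genes in each setting, Cnot1, Cnot6, Cnot6l and Cnot7 stayed positive and Cnot9 negative. Cnot3 turned to 0.0035 and Cnot11 to 0.013 without MI+TRD replicate 5, and Cnot11 to 0.0076 with the span trend removed. Without MI+TRD replicates 1, 4 and 5, Cnot2 was at −0.017, Cnot8 at 0.074 and Cnot11 at 0.089. Without the 4 libraries above 5% ribosomal RNA, Cnot4 was at −0.034 and Cnot10 at 0.026. With DESeq2, 18 genes were called, against 0 with limma, and leaving out single libraries gave 0 throughout. The number of subunits higher at an unadjusted p below 0.05, 1 as reported, was 4 with median ratio scaling and with equal totals taken without the ribosomal RNA entries, 5 with equal column totals, 3 with edgeR and with DESeq2, 2 with quantile normalization and with the span trend removed, and 0 without the 4 libraries above 5% ribosomal RNA. Over all genes, 298 were higher as reported, 798 with median ratio scaling, 899 with equal totals without those entries and 1208 with equal column totals. There were 852 with edgeR, 946 with DESeq2, 697 with quantile normalization, 262 with the span trend removed and 43 without those 4 libraries. The cause was not tested. The number of subunits higher ran from 1 to 2 when single libraries were left out (2 without MI replicate 3, 5 or 6 or MI+TRD replicate 6). Without those libraries, in the same order, 319, 348, 340 and 334 of all genes were higher. The number lower, 0 as reported, was 1 with the span trend removed and ran from 0 to 1 when single libraries were left out (1 without MI replicate 6 or MI+TRD replicate 2 or 6). Of all genes, 2033 were lower as reported, 1719 with the span trend removed, and 2075, 2172 and 2323 without those libraries. Without the 4 libraries above 5% ribosomal RNA, the median of the subunits relative to all genes was 0.043, against 0.22, and the difference in the log2 ratio of Cnot6l to Cnot6 was 0.36, against 0.76. When single libraries were left out, the median ran from 0.16 to 0.32, the Cnot6l to Cnot6 difference from 0.65 to 0.89 and the Cnot8 to Cnot7 difference from −0.79 to −0.53, and without MI replicate 4 the Cnot6 value was 0.13. The settings by ribosomal RNA were chosen after seeing the data. Whether replicate numbers pair the libraries was not settled: same-numbered deviations correlated between −0.33 and 0.33, above 0.1 in 4 of 6 pairs. For 3 of the 6 MI+TRD libraries, the MI library of the same number was the one that correlated best. With the replicate block the calls stayed at 0 genes and 1 subunit higher. Depth limits the low MI values of Cnot6l most, with 42 reads in MI replicate 4.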
